A study of Phanerodontia chrysosporium with 18 samples.

Results

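The core enzymes of glycolysis were followed at the transcript level in the white-rot fungus Phanerochaete chrysosporium, a basidiomycete that degrades all polymers of wood. The set holds 8 of the 13602 gene models in the deposited table and was chosen by protein number: phosphofructokinase (2988837), fructose-bisphosphate aldolase (136462), triose-phosphate isomerase (2913593), GAPDH 1 (3028685), phosphoglycerate kinase (2895437), phosphoglycerate mutase (2981615), enolase 1 (2915444) and pyruvate kinase 1 (1303762). Strain RP78 grew on thin sections of spruce sapwood (Picea glauca) in agar with nitrogen and mineral salts, with wood as the carbon source, and the groups were sections harvested at 40 h and at 96 h after inoculation. Each group had 3 libraries, each from 20 pooled sections, and each library was read in 3 lanes that were averaged here. There was no uncolonised or other control, so 40 h is the level against which 96 h is set.

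Glycolysis splits glucose into pyruvate in the cytosol and yields ATP and NADH. Its upper steps spend ATP to turn hexose phosphates into triose phosphates, and its lower steps, from GAPDH to pyruvate kinase, recover ATP. Most steps are reversible and also serve gluconeogenesis, the synthesis of hexose from pyruvate and its relatives. Phosphofructokinase and pyruvate kinase are in effect irreversible and are bypassed in gluconeogenesis by fructose-1,6-bisphosphatase and by pyruvate carboxylase with phosphoenolpyruvate carboxykinase. In a fungus growing on wood, the sugars that enter these routes come from cellulose and hemicellulose.

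The values are RPKM, read counts scaled for gene length and library total, made by the authors, so levels can be set side by side between genes. They are shares of the fungal messenger RNA in a library, so fewer cells that use a gene, less of its RNA per cell and more RNA of other genes cannot be told apart. No read totals were used here. Steps between the lowest RPKM values gave depths of 0.72 to 1 for the 40 h libraries and 0.483 to 0.712 for the 96 h libraries, relative to library 1 at 40 h. Across genes, library 2 of the 96 h group correlated at 0.984 and 0.992 with the other libraries of its time, which correlated at 0.995 with each other. For the 8 enzymes, calls that change when it is left out are given with both values.

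Transcripts of 6 of the 8 enzymes fell between 40 h and 96 h, and none rose. The largest fall, 5.36-fold in mean RPKM, was that of phosphoglycerate mutase, followed by 3.84-fold for pyruvate kinase 1, 2.58-fold for GAPDH 1 and 2.27-fold for enolase 1, all enzymes of the lower steps. Phosphofructokinase and aldolase, of the upper steps, fell by less, 1.54-fold and 1.40-fold. Triose-phosphate isomerase, of the upper steps, and phosphoglycerate kinase, of the lower steps, did not pass the test. With all libraries, phosphoglycerate kinase had the smallest estimated change of the 8, so the falls did not divide into upper and lower steps. Of all RPKM in a library, these 8 models together took 0.685% ± 0.0764 at 40 h against 0.337% ± 0.0428 later (SD, n = 3), a 2.03-fold lower share. Without library 2 the 96 h share was 0.312%. By library the share was 0.601%, 0.704% and 0.750% at 40 h and 0.307%, 0.386% and 0.318% at 96 h, and the groups did not overlap.

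Calls are adjusted p-values below 0.05 in limma's moderated test on log2(RPKM + 1), adjusted over all 11725 models tested, and all 8 enzymes were among these. Of all tested models 35.6% were called lower at 96 h and 26.3% higher, so the count of 6 of 8 lower stands beside a background in which falls were common. After median-ratio scaling of the libraries, 3705 of all tested models were lower and 3754 higher, against 4179 and 3088 without it, and the same count of 6 enzymes was lower. Falls of at least 2-fold that were called were found for 4 of the 8 enzymes and for 7.47% of tested models. All 96 h libraries lay below all 40 h libraries for 6 of the 8 enzymes and for 39.8% of tested models. The median log2 fold change was -0.90 over the 8 enzymes and -0.08 over all tested models. At an unadjusted p below 0.05, 7 were lower and 0 higher in limma, and 0 were higher by the P column of the authors' deposited table. The share of all tested models at that looser threshold is not given here, so these counts have no background beside them.

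**Figure D1:**
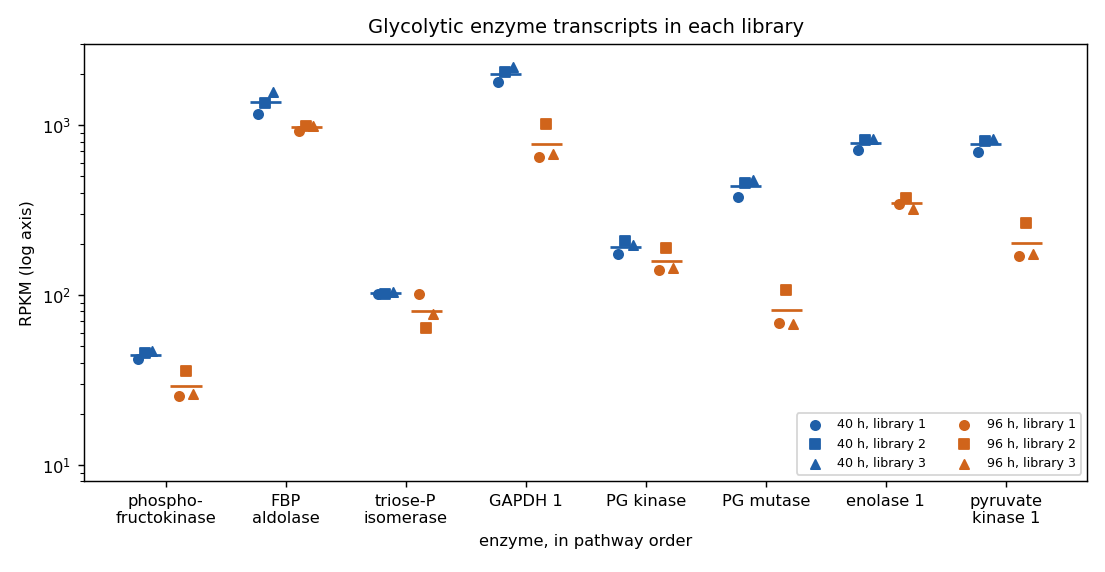
RPKM (log axis) of the 8 glycolytic enzymes in pathway order, with 1 point for each library (marker shape) and a bar at the mean of each time, 40 h in blue and 96 h in orange. The times are apart for 6 enzymes and overlap for triose-phosphate isomerase and phosphoglycerate kinase, and GAPDH 1 went from a mean of 2009 to 778 RPKM.

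Phosphofructokinase, which phosphorylates fructose 6-phosphate and commits hexose to glycolysis, had the lowest transcript level of the set. It was measured at 41.8, 45.2 and 46.5 RPKM in the 3 libraries at 40 h and at 25.3, 35.5 and 26.2 RPKM at 96 h. Every 96 h library lay below every 40 h library, and library 2 was the highest of the 96 h group. Its log2 fold change came to -0.62 (SE 0.13, adjusted p = 0.00347). The table gives this model no curated name; its annotation rests on 2 phosphofructokinase domain hits, at residues 2 to 364 and 442 to 732. Fungal and animal phosphofructokinases are known to consist of a duplicated domain of this kind.

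Fructose-bisphosphate aldolase, which cleaves the hexose bisphosphate into both triose phosphates, had the smallest fold change of the abundant enzymes, set beside GAPDH 1, enolase 1 and pyruvate kinase 1. It was measured at 1160, 1357 and 1566 RPKM at 40 h and at 924, 993 and 990 RPKM at 96 h. The 96 h libraries were close to each other, and all lay below the lowest 40 h library. On the log2 scale it fell by 0.48 (SE 0.12, adjusted p = 0.0107). Its domain is that of class II ketose-bisphosphate aldolases, the metal-dependent type that is usual in fungi.

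Triose-phosphate isomerase, which interconverts the triose phosphates from that cleavage, stood at nearly the same level in all 40 h libraries, 102, 101 and 104 RPKM. At 96 h the libraries were spread, at 101, 63.5 and 76.7 RPKM. Library 1 at 96 h lay within the 40 h range, and library 2 was the lowest of all. The log2 fold change of -0.37 had a 95% confidence interval from -0.71 to -0.02 and did not pass after adjustment (SE 0.15, adjusted p = 0.0650). When library 1 of 96 h was left out, its estimate was -0.54 and passed (adjusted p = 0.00191), and when library 2 was left out it was -0.21 and did not (adjusted p = 0.122). The adjusted p lay between 0.000414 and 0.184 under the 20 alternatives.

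GAPDH 1, glyceraldehyde-3-phosphate dehydrogenase, which oxidises triose phosphate and reduces NAD, was the most abundant enzyme of the set at 40 h. It was measured at 1781, 2041 and 2205 RPKM at 40 h and at 647, 1008 and 678 RPKM at 96 h. The groups were well apart, and library 2 at 96 h was 1.52 times the mean of the other 96 h libraries. It fell by 1.39 on the log2 scale (SE 0.18, adjusted p = 0.000298). Among all 13602 models it went from rank 29 by mean RPKM at 40 h to rank 112 at 96 h.

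Phosphoglycerate kinase, the ATP-forming step that follows, had 173, 209 and 196 RPKM at 40 h and 141, 189 and 144 RPKM at 96 h. Library 2 at 96 h fell inside the 40 h range, and the other 96 h libraries lay below it. The log2 fold change of -0.29 had an interval from -0.59 to 0.0055 and did not pass (SE 0.13, adjusted p = 0.0803). When library 2 of 96 h was left out it was -0.43 and passed (adjusted p = 0.00312), and the adjusted p lay between 3.13e-05 and 0.230 under the 20 alternatives. With all libraries its estimated change was the smallest of the 8, and without library 2 of 96 h that of triose-phosphate isomerase, at -0.21, was smaller. Its neighbours in the pathway both fell by over 2-fold.

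Phosphoglycerate mutase, which moves the phosphate of 3-phosphoglycerate to form 2-phosphoglycerate, showed the largest fall. It was measured at 378, 455 and 472 RPKM at 40 h and at 68.8, 107 and 67.8 RPKM at 96 h. The lowest 40 h library was above 3 times the highest 96 h library. Its log2 fold change was -2.43 (SE 0.18, adjusted p = 1.42e-05), and 1.38% of all tested models had a lower one. The model carries the domain of mutases that work without 2,3-bisphosphoglycerate as cofactor. A further 7 tested models carry the PGAM domain, which cofactor-dependent mutases share with other phosphatases of the same superfamily. Of these 3 were lower, 1 was higher and 3 were not called, beside 35.6% lower and 26.3% higher over all tested models.

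Enolase 1, which removes water to form phosphoenolpyruvate, had 711, 813 and 830 RPKM at 40 h and 343, 373 and 321 RPKM at 96 h. Its libraries agreed closely within each time, and no 96 h library came near the 40 h range. The log2 fold change was -1.18 (SE 0.098, adjusted p = 2.60e-05), with the smallest SE of the 8. A second model with an enolase domain (2900871) was at 4.26 ± 0.389 RPKM at 40 h and 2.73 ± 0.182 at 96 h and fell by 0.49 on the log2 scale (adjusted p = 0.00138), so enolase 1 held nearly all transcript with that annotation at both times. The second model was named after its values were seen.

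Pyruvate kinase 1, which forms pyruvate and ATP in the last step, had 695, 806 and 830 RPKM at 40 h and 170, 264 and 174 RPKM at 96 h. All 96 h libraries were far below the 40 h range, with library 2 at 1.54 times the mean of the other 2. A log2 fold change of -1.96 was found (SE 0.17, adjusted p = 3.55e-05), and 2.09% of all tested models had a lower one. At 40 h its level followed that of enolase 1 within each library, with ratios of 0.978, 0.991 and 1.000, and at 96 h the ratios were 0.495, 0.708 and 0.542.

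**Figure D2:**
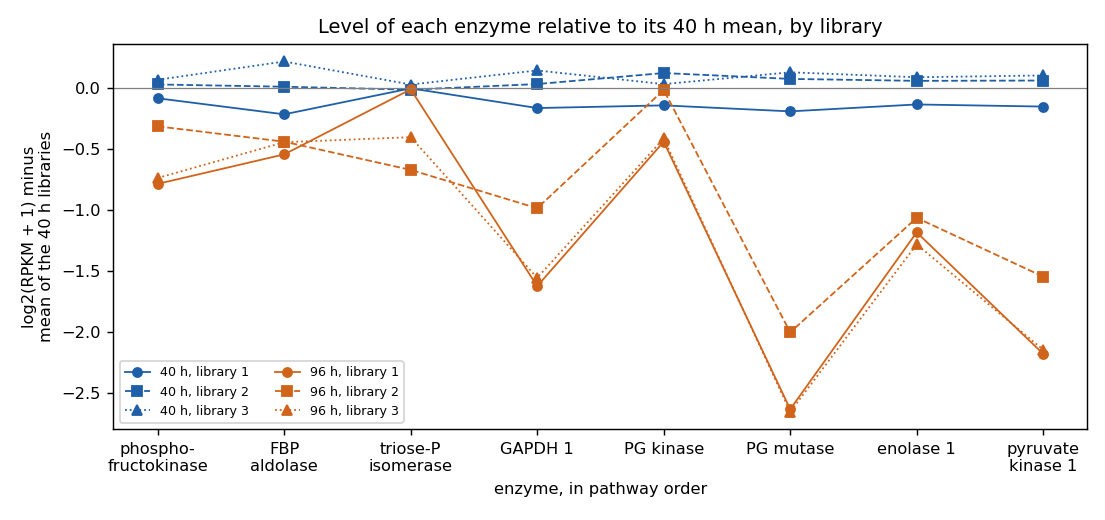
Level of each enzyme in each library as log2(RPKM + 1) minus the mean of the 40 h libraries, in pathway order, with 1 line for each library, 40 h in blue and 96 h in orange. The 96 h lines are all deepest at phosphoglycerate mutase, and library 2 (dashed) lies above the other 96 h libraries except at triose-phosphate isomerase, where it is the lowest.

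Relative to 40 h, all 96 h libraries were lowest at phosphoglycerate mutase and next lowest at pyruvate kinase 1. They differed in how far they fell and in part in the profile along the pathway. At triose-phosphate isomerase the log2 levels relative to 40 h were -0.0148, -0.675 and -0.407 in libraries 1, 2 and 3. Library 2 had the highest 96 h value for 7 of the 8 enzymes, triose-phosphate isomerase being the exception. This was so for 55.8% of all tested models, and for 64.6% of those called lower at 96 h. At 40 h library 1 was the lowest for 7 of the 8 enzymes and for 51.3% of tested models. Without library 2 at 96 h the ratio of mean RPKM, 96 h over 40 h, was 0.157 for phosphoglycerate mutase, 0.221 for pyruvate kinase 1 and 0.330 for GAPDH 1, against 0.187, 0.261 and 0.387 with it. The part of depth or other differences between these libraries in this spread was not tested. The mean SD between lanes of a library was at most 0.0447 on the log2 scale for these 8 models, below the SD between libraries of 96 h for each of them. At 40 h the SD between libraries of triose-phosphate isomerase, 0.0218, was below its lane SD of 0.0447, and for the other 7 enzymes it was above the lane SD.

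The order of the levels changed between the times. At 40 h it ran from GAPDH 1 through aldolase, enolase 1, pyruvate kinase 1, phosphoglycerate mutase, phosphoglycerate kinase and triose-phosphate isomerase to phosphofructokinase, with 45.1-fold between the highest and the lowest mean RPKM. Only enolase 1 and pyruvate kinase 1 overlapped among neighbours in that order. At 96 h aldolase had the highest mean, 969 ± 39.1 RPKM, and GAPDH 1 followed with 778 ± 199.9, their libraries overlapping. Phosphoglycerate kinase, 158 ± 27.3 RPKM, had passed phosphoglycerate mutase, 81.2 ± 22.4 RPKM. Pyruvate kinase 1 overlapped with phosphoglycerate kinase, and phosphoglycerate mutase with triose-phosphate isomerase at 80.4 ± 19.0 RPKM. The ratio of phosphoglycerate kinase to phosphoglycerate mutase was 0.459, 0.458 and 0.414 in the 40 h libraries and 2.05, 1.77 and 2.12 in the 96 h libraries. The ratio of aldolase to GAPDH 1 was 0.651, 0.665 and 0.710 at 40 h and 1.43, 0.985 and 1.46 at 96 h. These ratios were chosen after the values were seen, and their differences were not tested.

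No model of the steps above phosphofructokinase was called lower. Glucose-6-phosphate isomerase (2967674), which makes fructose 6-phosphate, was at 189, 215 and 197 RPKM at 40 h and at 306, 301 and 268 RPKM at 96 h. It rose, with all 96 h libraries above the 40 h range and 0.54 as its log2 change (SE 0.086, adjusted p = 0.000948). Of the hexokinases, which phosphorylate glucose on entry, 2979208 went from 92.3 ± 4.71 to 107 ± 6.36 RPKM (adjusted p = 0.0337). That call was lost without library 1 or 3 of the 40 h group or library 2 or 3 of the 96 h group, with adjusted p-values of 0.104, 0.116, 0.0616 and 0.0727. It was also lost with the pool number fitted as a replicate block (adjusted p = 0.0622). The other, 3008745, was at 132 ± 9.84 and 138 ± 16.9 RPKM (adjusted p = 0.615). In all, 11 further models matched glycolytic steps or isoforms by their annotation, of which 3 were higher and 4 lower, and the median log2 change was -0.05. These shares are near those over all tested models, 26.3% higher and 35.6% lower, and without library 2 of 96 h 2 were higher. Of these, 2 models with a PGAM domain had the largest changes, with log2 fold changes of -1.17 for 2666328 and -0.70 for 3022385.

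Of the gluconeogenic enzymes, fructose-1,6-bisphosphatase and phosphoenolpyruvate carboxykinase moved opposite to the glycolytic enzymes they oppose. Pyruvate carboxylase did not. Fructose-1,6-bisphosphatase (3007920, annotated by its domain), which reverses the phosphofructokinase step, was at 189, 211 and 236 RPKM at 40 h and at 652, 694 and 791 RPKM at 96 h. It rose 3.36-fold in mean RPKM (log2 fold change 1.74, SE 0.11, adjusted p = 6.11e-06). Phosphoenolpyruvate carboxykinase (3031422), which makes phosphoenolpyruvate from oxaloacetate, was at 329, 398 and 528 RPKM at 40 h and at 941, 1299 and 1230 RPKM at 96 h. It rose 2.76-fold (log2 fold change 1.48, SE 0.19, adjusted p = 0.000294). Pyruvate carboxylase (2900690), which makes oxaloacetate from pyruvate and also feeds the citrate cycle, went the other way, from 2884, 2919 and 3285 RPKM to 213, 303 and 223 RPKM. Its log2 fold change was -3.63 (SE 0.14, adjusted p = 5.77e-07), a larger fall than that of any of the 8 glycolytic enzymes.

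Within a library, pyruvate kinase 1 stood to phosphoenolpyruvate carboxykinase as 2.11, 2.03 and 1.57 to 1 at 40 h and as 0.180, 0.203 and 0.141 to 1 at 96 h, so the more abundant transcript of the pair was the carboxykinase at 96 h. This mean ratio was 10.9-fold lower at 96 h. The ratio of phosphofructokinase to fructose-1,6-bisphosphatase was 0.220, 0.214 and 0.197 at 40 h and 0.0388, 0.0511 and 0.0331 at 96 h, 5.14-fold lower in the mean. Neither ratio overlapped between the times. The pairs were formed after the values were seen, and the ratios were not tested.

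**Figure D3:**
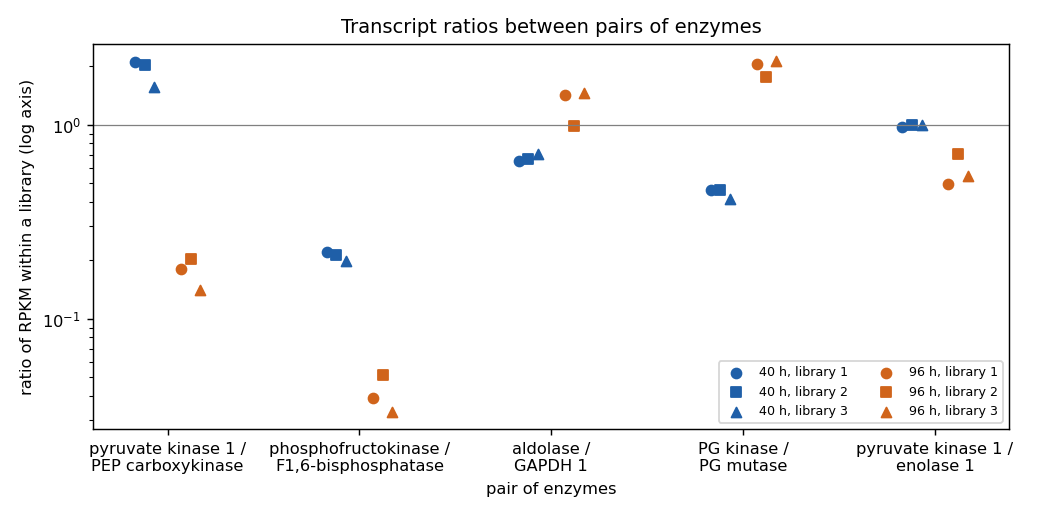
Ratio of RPKM between pairs of enzymes within each library (log axis), with 1 point for each library, 40 h in blue and 96 h in orange. Both ratios of a glycolytic enzyme to its gluconeogenic counterpart were lower at 96 h, at most 0.203 for pyruvate kinase 1 over phosphoenolpyruvate carboxykinase, while aldolase over GAPDH 1 and phosphoglycerate kinase over phosphoglycerate mutase were higher.

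Routes that branch from glycolysis held calls in both directions, as did all tested models, of which 26.3% were higher and 35.6% lower. Of 18 models matched to the pentose phosphate pathway and pentose entry, 9 were higher and 2 lower, and the median log2 change was 0.29. The count of lower models was 1 without any 1 of the 40 h libraries or without library 3 of the 96 h group, and 3 without library 2 of the 96 h group, where 10 were higher. Transaldolase (2986615), which exchanges carbon between sugar phosphates and returns fructose 6-phosphate to glycolysis, rose from 511 ± 34.8 to 1195 ± 46.0 RPKM (adjusted p = 1.32e-05). The NADPH-forming 6-phosphogluconate dehydrogenase (2985543) rose from 855 ± 50.1 to 1271 ± 125 RPKM (adjusted p = 0.00208). A probable xylitol dehydrogenase (2969021), of the route by which fungi use xylose, rose from 23.3 ± 3.36 to 166 ± 63.3 RPKM (adjusted p = 8.32e-05). Xylose reductase (3030943), the step before it, was at 2119 ± 38.0 and 2123 ± 72.5 RPKM (adjusted p = 0.983). The list also holds enzymes of other pathways that share a domain name, among them dihydroxy-acid dehydratase (2981268) of branched-chain amino acid synthesis, which rose by 2.57 on the log2 scale.

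For storage and interconversion of hexose, 4 of 11 models were higher and 4 lower (median log2 fold change -0.14), close to the shares over all tested models. Without library 2 of 96 h, 5 were lower. Phosphoglucomutase-2 (2900948), which links glucose 6-phosphate to glucose 1-phosphate, fell from 472 ± 29.4 to 229 ± 12.8 RPKM (adjusted p = 2.06e-05). UTP-glucose-1-phosphate uridylyltransferase (134115), which makes UDP-glucose, fell from 530 ± 28.4 to 388 ± 59.7 RPKM (adjusted p = 0.00989). Trehalose synthase (3034582) rose from 274 ± 22.9 to 493 ± 50.7 RPKM (adjusted p = 0.000209), and a GH37 model with a trehalase domain (2917930) from 8.22 ± 0.724 to 20.3 ± 6.28 RPKM (adjusted p = 0.00191). A more abundant GH37 model with that domain (2902099) was at 66.9 ± 1.56 and 60.6 ± 1.48 RPKM and was not called (adjusted p = 0.0743). This model was named after its values were seen.

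Below pyruvate, 4 of 8 tested models matched by annotation terms were higher and 2 lower (median log2 fold change 0.31), from 11 matched. Of all tested models, 26.3% were higher and 35.6% lower. The list also took in malic enzymes and a phosphoketolase. An ATP-citrate synthase (2979451), which makes acetyl-CoA in the cytosol, rose from 101 ± 7.67 to 167 ± 22.8 RPKM (adjusted p = 0.000794). A model with the domain shared by ATP-citrate lyase and succinyl-CoA ligase (3012285) fell from 273 ± 17.2 to 152 ± 25.6 RPKM (adjusted p = 0.000483). Model 3029054, curated as acetyl-CoA synthetase-like, rose from 11.5 ± 2.83 to 105 ± 5.57 RPKM (adjusted p = 1.65e-06). Its other annotation is a male sterility, NAD-binding domain, while the acetyl-CoA synthetase 3028417 carries an AMP-binding domain. Its place in this list is therefore uncertain. The acetyl-CoA synthetase 3028417 was near 2.86 RPKM at 40 h and at 70.1, 4.05 and 19.8 RPKM in the 96 h libraries (adjusted p = 0.0337). This call was lost without any 1 of the 40 h libraries or library 3 of the 96 h group (adjusted p from 0.0667 to 0.0898). It was also lost without the filter on RPKM (adjusted p = 0.0977). The malic enzyme domain model 3027725 went from 46.6 ± 16.3 to 107 ± 46.1 RPKM (adjusted p = 0.0172). That call was lost without the filter (adjusted p = 0.0601) and without library 1 or 2 of the 40 h group (adjusted p = 0.0630 and 0.0508). Without either of these 40 h libraries the count of higher models was 2, and without library 2 of 96 h the count of lower models was 3.

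The citrate cycle oxidises the acetyl units made from pyruvate. Of 24 models matched to it by annotation terms, 8 were higher and 12 lower (median log2 fold change -0.32), beside 26.3% and 35.6% of all tested models. The match also took in a flavoprotein monooxygenase and both models 2979451 and 3012285, which are counted below pyruvate as well, and 2989759 is also counted in the pentose phosphate list. Mitochondrial aconitase (3028433) fell from 1611 ± 169 to 479 ± 87.4 RPKM (adjusted p = 2.54e-05), and a fumarate reductase with a domain shared with succinate dehydrogenase (123932) from 3329 ± 489.8 to 640 ± 71.5 RPKM (adjusted p = 3.99e-06). A 2-oxoglutarate dehydrogenase (2989759) rose from 11.6 ± 0.380 to 59.7 ± 21.1 RPKM (adjusted p = 8.23e-05). Malate dehydrogenase (2910636) was at 1282 ± 132 and 1113 ± 77.0 RPKM (adjusted p = 0.152). Another model annotated as lactate/malate dehydrogenase (2966263) fell from 800 ± 47.6 to 452 ± 15.5 RPKM (adjusted p = 7.78e-05). That model was named after its values were seen.

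**Figure D4:**
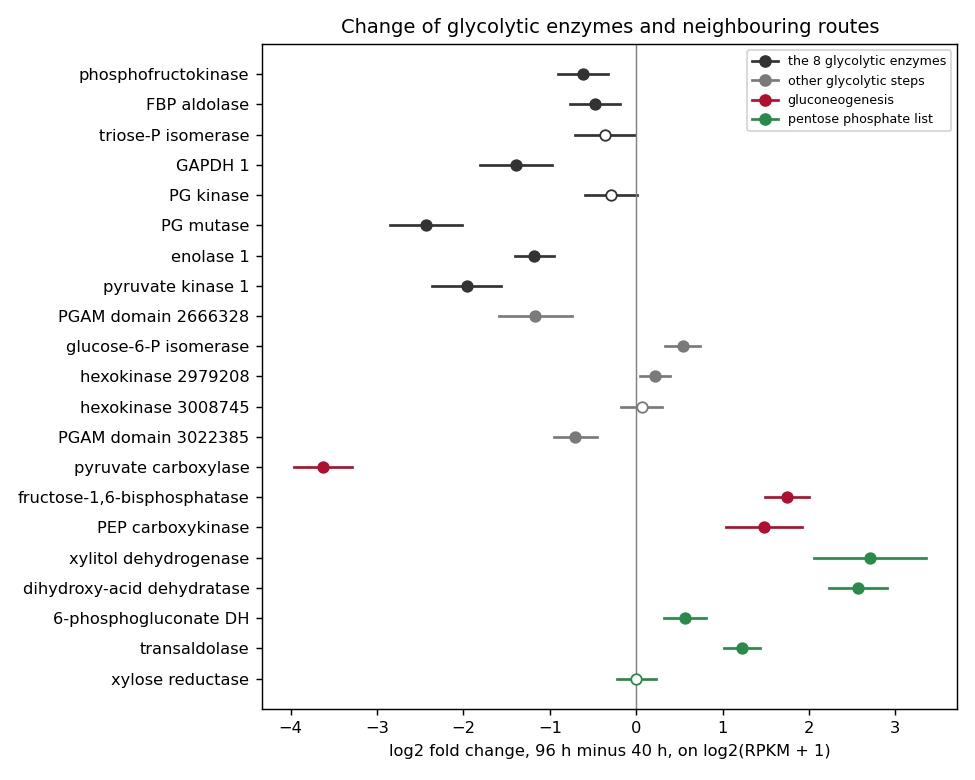
Log2 fold change on log2(RPKM + 1), 96 h minus 40 h, with its 95% confidence interval from limma, for the 8 glycolytic enzymes (black) and named models of other glycolytic steps (grey), gluconeogenesis (red) and the pentose phosphate list (green). Filled points passed an adjusted p below 0.05, open points did not, and the values run from -3.63 for pyruvate carboxylase to 2.71 for xylitol dehydrogenase.

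GAPDH is often used as a reference gene in measurements of single transcripts, so genes used for that purpose in other work were set beside it. The list matched 105 models by actin, tubulin, elongation factor, ubiquitin and cyclophilin terms, most of them of related but other functions. Of 104 tested, 19 were higher and 32 lower, and the median log2 change was -0.05, against 26.3% higher, 35.6% lower and a median of -0.08 over all tested models. After median-ratio scaling of the libraries, 28 were higher and 24 lower. The lower count was 18 without library 2 of the 40 h group, and 19 without library 3 of either time, and it was 43 without library 2 of the 96 h group. Elongation factor 1-alpha (134660), the most abundant of them, was at 4234 ± 168 RPKM at 40 h and 3559 ± 108 at 96 h (log2 fold change -0.25, adjusted p = 0.0914, and 0.0130 without the variance trend). A peptidyl-prolyl isomerase of the cyclophilin type (2979682) was at 1673 ± 91.4 and 1606 ± 86.2 RPKM (log2 fold change -0.06, adjusted p = 0.632). The ubiquitin-conjugating enzyme 2907465 rose from 1557 ± 102 to 2056 ± 72.4 RPKM (adjusted p = 0.00943). The largest changes in the list were those of the ubiquitin-conjugating enzyme 2970553, with a log2 fold change of -1.06, and the ubiquitin domain model 2984923, with one of 1.27, against -1.39 for GAPDH 1.

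For each glycolytic enzyme the annotated model with the most similar change profile was sought among 5874 candidates, by the Euclidean distance between centred log2(RPKM + 1) values over the 6 libraries. The nearest were models with a Snf7 domain for phosphofructokinase (1309422, distance 0.0840), a COQ9 domain for phosphoglycerate kinase (2901815, 0.0913), a cytochrome P450 domain for aldolase (2900820, 0.0936) and a redoxin domain for triose-phosphate isomerase (125657, 0.0971). For the enzymes with larger falls the nearest were more distant: a 5'-nucleotidase domain for enolase 1 (122964, 0.122), an FAD-dependent oxidoreductase for GAPDH 1 (2985033, 0.173), a GH13 fragment for pyruvate kinase 1 (2983917, 0.207) and a cytochrome P450 for phosphoglycerate mutase (2977643, 0.272). Within the set, the closest pairs were phosphofructokinase with phosphoglycerate kinase (0.413) and with aldolase (0.415), and aldolase with phosphoglycerate kinase (0.438). GAPDH 1 and enolase 1 were 0.462 apart, and phosphoglycerate mutase and pyruvate kinase 1 were 0.583 apart. None of the 8 enzymes has a signal peptide probability in the deposited table, which gives one for 1274 models.

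The authors' deposited table gives ratios of 96 h to 40 h below 1 for all 8 enzymes, from 0.183 for phosphoglycerate mutase to 0.815 for phosphoglycerate kinase. For the enzymes that did not pass here, the P column of the authors' deposited table holds 0.000215 for triose-phosphate isomerase and 8.97e-06 for phosphoglycerate kinase. Across tested models the t statistic of the authors' deposited table was at the median 1.05 times a t statistic computed over lanes and 3.38 times one computed over libraries. It lay within 1% of the former for 4.54% of these models. The test behind that column is not stated.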

How the data were processed

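RNA of 6 libraries, 3 at 40 h and 3 at 96 h, was sequenced in 3 lanes each, per the labels. The authors deposited RPKM for each of the 18 library and lane combinations, with 0.002 in place of 0; per the file headers the table also holds their mean RPKM, the ratio of these means, a p-value, a t statistic (score) and a fraction, the signal peptide probability. CASAVA 1.8.2 is named in the submitters' processing notes; for aligner, counter, genome build and test the sources used here name none. The authors' 96 h means equal the geometric mean of the 9 lane columns of that time, with a median relative difference of 1.17e-05 over tested models. Their 40 h means were not compared in this way.

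Lanes sharing a barcode were averaged and counted once, since the number after "rep" in the titles follows the lane. Every lane held all 6 libraries. Whether pools came from separate cultures is not stated, so p-values reflect variation among these libraries, which may be technical. Models that reached 1 RPKM in 3 or more libraries were fitted on log2(RPKM + 1) using limma 3.58.1 (R 4.3.3; empirical Bayes, variance trend), two-sided, with Benjamini-Hochberg adjustment. Fold changes on this scale understate low genes; folds in mean RPKM are named as such.

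The members, lists and alternatives were chosen with earlier results of these data known. Lists are text patterns on the annotation. From a list, every model was named if at most 6 were tested; otherwise the 3 of highest level and the 2 called with the largest change. The labels name the pools I, II and IV at 40 h and 1, 2 and 4 at 96 h. Whether same-numbered libraries pair cannot be decided from 3 libraries at each time. Their deviations from the group means correlated at 0.136, 0.133 and -0.102 by barcode number and at 0.218, -0.0971 and 0.0757 by pool number.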

Additional observations from a re-analysis of the deposited data

How the results depend on the processing

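Under 20 alternatives (pseudocounts of 0.1 and 5, no filter or 5 RPKM, median-ratio scaling, no variance trend, lane treatment, each library left out, 2 replicate blocks, a threshold of 0.01, and the authors' deposited P and ratio, added after seeing the data), all 160 values of the 8 enzymes kept their direction and 8 calls changed. The count of lower enzymes ranged from 5 to 8. Aldolase missed the threshold of 0.01 (adjusted p = 0.0107); by construction that setting differs only in the threshold. Triose-phosphate isomerase passed in lanes 1 and 2 alone (0.0499 and 0.0496), without 96 h library 1 and by the authors' deposited table. Phosphoglycerate kinase passed without 96 h library 2, with the barcode number as a replicate block (0.0294) and by the authors' deposited table. With the replicate block by barcode number 7 enzymes were lower, with that by pool number 6; under each numbering 3 of 6 libraries correlated best with their own number. In the pathway lists, the 2 lower pentose phosphate models became 1 under both replicate blocks, in each single lane, with either filter, with scaling and at 0.01, and 1 to 3 with a library left out. The 4 higher models below pyruvate became 2 without the filter and at 0.01, and 2 to 4 with a library left out. Lower reference genes numbered 17 at 0.01 and 18 to 43 with a library left out. By the authors' deposited table these lists had 52 lower and 32 higher reference genes, 5 higher further glycolytic models and 4 lower models below pyruvate. The causes were not tested. Read totals are unknown, so no counting interval could be given; the 8 enzymes lie at 25.3 RPKM or above in every library.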
